A study of Mus musculus with 6 samples.

Results

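The cytosolic heat shock chaperones were followed here through 10 genes that were chosen by name: Hspa1a, Hspa1b, Hsph1, Dnajb1, Hspb1, Hsp90aa1, Hspa8, Dnaja1, Hspd1 and Hspe1. They are 10 of the 36870 gene names on the array, and all 10 were among the 20474 genes bright enough to be tested. The first 6 were taken as inducible and the last 4 as constitutive, a division set by choice and not tested here. Hspd1 and Hspe1 encode the chaperonin of the mitochondrial matrix and its lid, so the word cytosolic does not cover them. The array held 22 probes for the 10 genes. Of these, 20 were tested and 2 (1 for Hsph1 and 1 for Hsp90aa1) were not well above background in any reading.

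The samples were lung tumors of C57BL/6J mice with the alleles Ror1f/f, CAG-CreER and SPC-hEGFRdel746-750, of which 3 samples came from tamoxifen treatment and 3 from corn oil, each given for 4 weeks between 16 and 20 weeks of age, with tumors taken at 20 weeks. All samples, the oil ones too, carried the floxed Ror1 gene, the tamoxifen-dependent Cre under the ubiquitous CAG promoter and the mutant human EGFR under the surfactant protein C promoter. They differed by label only in tamoxifen against oil, so tamoxifen itself and any deletion it caused cannot be told apart. A tamoxifen and an oil sample with equal numbers form a couple, which was hybridised on 2 arrays with the Cy3 and Cy5 dyes exchanged, giving 6 arrays and 3 couples. The labels do not say that the numbered samples were separate animals, so p-values measure only the spread between these samples.

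Ror1, the targeted gene, had a log2 ratio of tamoxifen over oil of 0.58, 0.44 and 0.18 in couples 1, 2 and 3 with signal over background in every reading of either treatment (limma adjusted p = 0.69). The labels do not name the deleted exon, so this probe does not check the deletion, and groups are called by their labels throughout. In each channel of each array, 51.8% to 58.8% of probes passed the scanner's background test. On the array of couple 1 with oil in Cy5, the median Cy5 intensity was 184.2, against 117.9 to 129.2 on the other 5 arrays. Markers of alveolar type 2 cells, in which the surfactant protein C promoter is active, were above background in every reading for 10 of 10 genes.

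Heat shock proteins are chaperones that bind unfolded proteins and help them fold or pass them on for degradation. Under heat, hypoxia or other protein stress, the transcription factor HSF1 forms trimers and binds heat shock elements, which are inverted repeats of the letters GAA in the promoters of inducible chaperone genes. Constitutive chaperones such as HSC70, the product of Hspa8, are made in unstressed cells as well. Tumors often hold high levels of chaperones.

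Promoter windows from 250 bases before to 50 bases after the transcript start were read from RefSeq on build GRCm38.p6, which listed 8 of the 10 genes with 13 windows. Hspa8 and Hsp90aa1 are named only. The search looked for GAANNTTC and TTCNNGAA, the 2 ways in which a pair of GAA units can face each other. Each of them reads the same on both strands. A longer motif of 3 units, GAANNTTCNNGAA or its reverse complement TTCNNGAANNTTC, contains both of the shorter ones. At least 1 short motif was found in 8 of the 13 windows, which belong to 7 genes, against 15.1% of all 32851 promoter windows in the table (7.86% for GAANNTTC and 8.52% for TTCNNGAA). The longer motif was found for 3 genes, Hsph1, Hspd1 and Hspe1, against 0.603% of all windows. Neither Dnajb1 window held these letters. Hspd1 and Hspe1 were taken as constitutive and Dnajb1 as inducible, so the motifs did not follow that division. The 4 windows below are shown because they belong to the inducible genes with the lowest ratios and to Hspe1, for contrast. Capitals mark the motif matches.
Hspa1a promoter at chr17:34972107-34972406, minus strand: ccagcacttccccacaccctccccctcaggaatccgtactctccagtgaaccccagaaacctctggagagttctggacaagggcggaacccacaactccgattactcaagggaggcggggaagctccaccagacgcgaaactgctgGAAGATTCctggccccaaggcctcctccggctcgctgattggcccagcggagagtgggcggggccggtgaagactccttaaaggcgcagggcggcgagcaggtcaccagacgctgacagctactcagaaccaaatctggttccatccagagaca
Hspa1b promoter at chr17:34959189-34959488, minus strand: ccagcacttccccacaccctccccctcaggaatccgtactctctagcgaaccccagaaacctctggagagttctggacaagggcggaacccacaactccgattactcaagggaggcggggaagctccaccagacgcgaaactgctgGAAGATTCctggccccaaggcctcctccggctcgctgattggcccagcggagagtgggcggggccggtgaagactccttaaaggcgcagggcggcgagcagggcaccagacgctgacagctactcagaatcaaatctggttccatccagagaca
Hspb1 promoter at chr5:135887669-135887968, plus strand: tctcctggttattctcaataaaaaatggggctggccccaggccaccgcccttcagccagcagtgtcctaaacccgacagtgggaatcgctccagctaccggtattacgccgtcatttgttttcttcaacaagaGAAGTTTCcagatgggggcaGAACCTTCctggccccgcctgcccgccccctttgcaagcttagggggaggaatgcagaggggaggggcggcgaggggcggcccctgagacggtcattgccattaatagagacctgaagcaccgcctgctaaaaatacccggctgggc
Hspe1 promoter at chr1:55087898-55088197, plus strand: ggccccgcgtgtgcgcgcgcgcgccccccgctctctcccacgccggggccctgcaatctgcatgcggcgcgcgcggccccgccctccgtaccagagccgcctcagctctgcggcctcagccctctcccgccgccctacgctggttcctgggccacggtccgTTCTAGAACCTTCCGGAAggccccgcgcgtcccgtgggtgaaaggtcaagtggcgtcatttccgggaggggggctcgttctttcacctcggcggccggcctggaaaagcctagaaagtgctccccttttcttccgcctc

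The Hspa1a and Hspa1b windows differed at 4 of 300 bases, and each had its only match at position -104 relative to the start. Hspb1 had 2 GAANNTTC matches, at positions -117 and -97. The Hspe1 window had its run of matches from position -89 and shared 285 of its 300 bases with an Hspd1 window on the other strand, since both genes are read outward from a common promoter. A match is a run of letters and was not tested for binding.

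For the constitutive Hspa8 and for Hsp90aa1, the 60-base probes are shown because they read the same gene at separate places, and the agreement between them bears on the values below. Positions are on build mm9 as the files give them, and exon annotation of that build was not used here.
Hspa8 probe at chr9:40612755-40613050: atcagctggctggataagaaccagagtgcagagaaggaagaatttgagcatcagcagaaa
Hspa8 probe at chr9:40611841-40611900: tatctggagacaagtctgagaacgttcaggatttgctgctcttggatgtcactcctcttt
Hspa8 probe at chr9:40611362-40611421: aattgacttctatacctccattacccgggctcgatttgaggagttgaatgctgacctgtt
Hspa8 probe at chr9:40610620-40610679: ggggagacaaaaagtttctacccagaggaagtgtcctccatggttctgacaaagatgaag
Hsp90aa1 probe at chr12:111932511-111932796: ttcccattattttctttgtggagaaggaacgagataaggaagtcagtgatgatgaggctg
Hsp90aa1 probe at chr12:111933318-111933377: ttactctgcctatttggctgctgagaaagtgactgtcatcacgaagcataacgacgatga

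Mean log2 ratios of tamoxifen over oil ran from -1.02 to 0.11 across the 10 genes. Hspa1a and Hspa1b, the twin genes for inducible HSP70, were dimmer in tamoxifen samples than in oil samples in every couple, by 1.66-fold and 2.03-fold on average. Dnajb1 was lower by 1.12-fold with little spread between couples, and Hspb1 was lower in 2 of 3 couples. The remaining 6 genes had mean log2 ratios between -0.01 and 0.11. None of the 10 passed an adjusted p of 0.05 in limma, where 0.0% of all 20474 genes passed. At an unadjusted p under 0.05, 2 of the 10 were lower, the twin genes Hspa1a and Hspa1b, and 0 were higher. Of all genes, 7.02% were past it in either direction and 4.02% on the lower side.

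Hspa1b encodes 1 of the 2 near-identical copies of inducible HSP70. Its normalized log2 signal was 8.83, 8.27 and 8.53 in tamoxifen samples 1, 2 and 3, against 9.37, 10.01 and 9.31 in oil samples 1, 2 and 3. All 3 tamoxifen samples lay below all 3 oil samples, and the highest and the lowest of the 6 values both came from couple 2. The log2 ratios of the couples were -0.54, -1.74 and -0.78, averaging -1.02 ± 0.63 (SD, n = 3 couples; limma 95% interval -1.67 to -0.36, adjusted p = 0.69). Without couple 2 the mean was -0.66. With all couples it was the 46th lowest mean ratio of all tested genes. Arrays of both dye orientations were below 0 in every couple, at -0.15, -1.44 and -0.48 with tamoxifen in Cy5 and at -0.93, -2.03 and -1.08 with tamoxifen in Cy3. The ratio was therefore farther from 0 with tamoxifen in Cy3 in each couple, by 0.30 to 0.39 on either side of the couple's mean.

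Hspa1a, the other copy of inducible HSP70, stood at 9.27, 8.86 and 9.03 normalized log2 units in tamoxifen samples 1, 2 and 3, against 9.68, 10.09 and 9.58 in oil samples 1, 2 and 3. As for Hspa1b, the groups did not overlap and couple 2 held both extremes. Its couples had log2 ratios of -0.41, -1.24 and -0.55, averaging -0.73 ± 0.44 (SD, n = 3 couples; limma 95% interval -1.21 to -0.25, adjusted p = 0.69), or -0.48 without couple 2. With all couples it was the 123rd lowest mean ratio, and all 6 arrays were below 0. The dye orientations of a couple lay within 0.03 to 0.19 of their mean, closer than for Hspa1b.

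Hspa1a and Hspa1b followed each other closely over the 6 samples (Pearson r = 0.999). The 2 genes lie next to each other on chromosome 17 and their messages are nearly the same, so a probe for one may also bind RNA of the other. Their probes sat at chr17:35106766-35106825 and chr17:35093374-35093405 (mm9, minus strand) and shared no run longer than 5 bases. The probes began at bases 2276 and 2664 of their transcripts, so this does not show whether either binds the other message. Neither probe was compared with the message of the other gene. The Hspa1b ratio was farther from 0 than the Hspa1a ratio in every couple, by -0.13, -0.50 and -0.23. The mean difference was -0.29 ± 0.19 (SD, n = 3 couples). This order depended on the dye. With tamoxifen in Cy3 it held in every couple. With tamoxifen in Cy5 it held only in couple 2, with Hspa1b at -0.15, -1.44 and -0.48 and Hspa1a at -0.38, -1.05 and -0.51. The 2 values are from different probes and were not tested against each other.

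Cell type markers went mostly to the same side of 0 within a list, where 51.2% of all genes had a mean log2 ratio below 0. No marker on the lists in this paragraph passed. Of the alveolar type 2 markers, 9 of 10 had a mean log2 ratio below 0 and 0 passed, with list means of -0.11, -0.33 and -0.39 in couples 1, 2 and 3. Their mean normalized log2 signal was 14.77 to 14.89 in tamoxifen samples and 14.95 to 15.28 in oil samples. The lowest were Napsa at -0.86 ± 1.07, with couples at 0.12, -0.69 and -2.01, and Sftpb, a surfactant protein gene, at -0.62 ± 0.09. Napsa weighed most on the list mean of couple 3. The highest were Nkx2-1 at -0.03 ± 0.18 and Etv5 at 0.11 ± 0.40 (SD, n = 3 couples; limma adjusted p between 0.67 and 0.96 for these genes). Fibroblast markers were below 0 for 7 of 8, with list means of -0.09, -0.01 and -0.22 and signals of 9.64 to 10.17 in tamoxifen samples and 9.86 to 10.18 in oil samples. Endothelial markers were above 0 for 7 of 7, with list means of -0.05, 0.14 and 0.30 and signals of 9.11 to 9.26 in tamoxifen samples and 8.87 to 9.16 in oil samples. T and NK cell markers, 5 of 6 tested, were above 0 for 5, with list means of 0.12, 0.17 and 0.19 and signals of 8.09 to 8.29 in tamoxifen samples and 7.90 to 8.17 in oil samples. The part of these cells in the chaperone values was not tested.

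**Figure D1:**
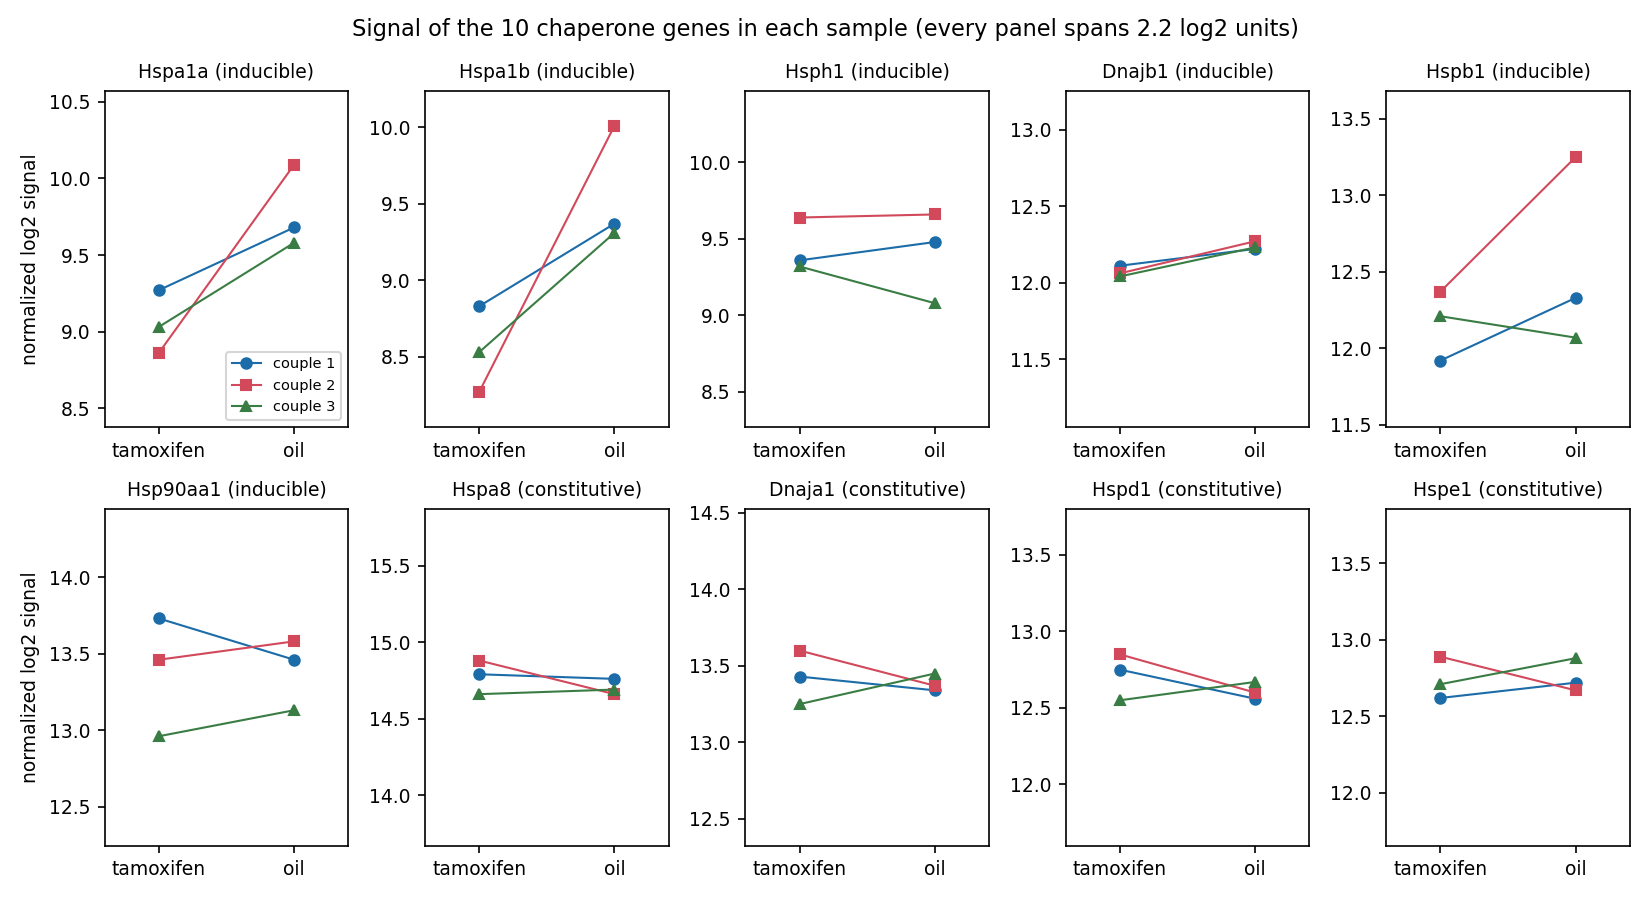
Normalized log2 signal (vertical axes, all of the same span) of the 10 genes in the 3 tamoxifen samples (left in each panel) and the 3 oil samples (right), with a line for each couple. For Hspa1a, Hspa1b and Dnajb1 every tamoxifen sample lies below every oil sample, while the groups overlap for the other 7 genes.

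Dnajb1 encodes an inducible J-domain protein that stimulates the ATPase of HSP70. Tamoxifen samples 1, 2 and 3 were at 12.11, 12.06 and 12.04 normalized log2 units, against 12.22, 12.27 and 12.23 in oil samples 1, 2 and 3. The groups did not overlap, and each was tight, with a range of 0.07 in tamoxifen and 0.05 in oil samples. The couples were at -0.11, -0.21 and -0.19 on the log2 ratio scale, averaging -0.17 ± 0.05 (SD, n = 3 couples; limma adjusted p = 0.69), and 5 of 6 arrays were below 0. Across the 10 genes this was the smallest SD over couples, where the median SD was 0.21 for the 10 genes and 0.17 for all tested genes.

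Hspb1 encodes a small heat shock protein that holds unfolding proteins without using ATP and is abundant in muscle and epithelia. It stood at 11.92, 12.37 and 12.21 normalized log2 units in tamoxifen samples 1, 2 and 3, against 12.33, 13.25 and 12.07 in oil samples 1, 2 and 3. Oil sample 2 was the highest of the 6, oil sample 3 was below 2 of the tamoxifen samples, and the groups overlapped. The log2 ratios of the couples were -0.42, -0.88 and 0.14, averaging -0.39 ± 0.51 (SD, n = 3 couples; limma adjusted p = 0.72). Without couple 2 the mean log2 ratio was -0.14, and without couple 3 it was -0.65.

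The mean over heart muscle markers had the same couple order as Hspb1, but not every marker did. Of the 8 markers listed, 7 were tested and 7 of 7 had mean log2 ratios below 0. The mean over the tested markers was -0.18, -0.52 and -0.07 in couples 1, 2 and 3. Their mean normalized log2 signal was 7.15 to 7.27 in tamoxifen samples and 7.33 to 7.68 in oil samples, and 5 of them were well above background in every reading. Myh6, the atrial heavy chain of myosin, had log2 ratios of -0.16, -2.54 and 0.52, and the low mean in couple 2 rested largely on it. Myl7, Tnnt2 and Nppa also had the couple order of Hspb1. Tnni3, Mybpc3 and Actc1 did not, and were lowest in couple 3. In tumor tissue, fewer cells of a type and less RNA per cell cannot be told apart, and the part of muscle tissue in the Hspb1 values was not tested.

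Hsph1 encodes HSP110, which exchanges the nucleotide of HSP70. Signals were 9.36, 9.64 and 9.32 normalized log2 units in tamoxifen samples 1, 2 and 3, against 9.48, 9.66 and 9.08 in oil samples 1, 2 and 3. The groups overlapped, and sample 2 was the highest in both. Its log2 ratio averaged 0.03 ± 0.19 (SD, n = 3 couples; limma 95% interval -0.24 to 0.30, adjusted p = 0.95), with couples at -0.12, -0.02 and 0.24.

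Hsp90aa1 encodes the inducible cytosolic form of HSP90. Signals were 13.73, 13.46 and 12.96 normalized log2 units in tamoxifen samples 1, 2 and 3, against 13.46, 13.58 and 13.13 in oil samples 1, 2 and 3. Sample 3 was the lowest in both groups, and the groups overlapped. Couples 1, 2 and 3 had log2 ratios of 0.27, -0.12 and -0.17, averaging -0.01 ± 0.24 (SD, n = 3 couples; limma 95% interval -0.31 to 0.30, adjusted p = 0.99). In each couple the 2 dye orientations lay 0.18 to 0.20 on either side of their mean, higher with tamoxifen in Cy3. The sign of this mean ratio is not settled: it was 0.06 with median centring and 0.18 on the arrays with tamoxifen in Cy3 alone.

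Among the constitutive genes, Hspa8 encodes HSC70, the HSP70 form present in unstressed cells. It read 14.79, 14.88 and 14.66 normalized log2 units in tamoxifen samples 1, 2 and 3, against 14.76, 14.66 and 14.69 in oil samples 1, 2 and 3. The groups overlapped and all 6 values lay close together. The mean log2 ratio was 0.07 ± 0.13 (SD, n = 3 couples), with couples at 0.02, 0.21 and -0.04 (limma 95% interval -0.17 to 0.30, adjusted p = 0.88). Its 4 probes, printed above, gave means between 0.02 and 0.07.

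Dnaja1, a J-domain partner of HSC70, stood at 13.43, 13.60 and 13.25 normalized log2 units in tamoxifen samples 1, 2 and 3, against 13.34, 13.37 and 13.45 in oil samples 1, 2 and 3. The tamoxifen samples spread over 0.35 units and enclosed the oil samples, which spread over 0.11. Log2 ratios of its couples were 0.09, 0.23 and -0.20, averaging 0.04 ± 0.22 (SD, n = 3 couples; limma adjusted p = 0.94).

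Hspd1, the barrel of the mitochondrial chaperonin, was at 12.75, 12.85 and 12.55 normalized log2 units in tamoxifen samples 1, 2 and 3, against 12.56, 12.60 and 12.67 in oil samples 1, 2 and 3. Its log2 ratio averaged 0.11 ± 0.20 (SD, n = 3 couples; limma adjusted p = 0.82), with couples at 0.19, 0.26 and -0.11. Hspe1, the lid of that chaperonin, was at 12.62, 12.89 and 12.71 in tamoxifen samples 1, 2 and 3, against 12.72, 12.67 and 12.88 in oil samples 1, 2 and 3. The mean log2 ratio of Hspe1 was -0.01 ± 0.21 (SD, n = 3 couples; limma adjusted p = 0.99), with couples at -0.09, 0.22 and -0.16. For both genes the tamoxifen and oil samples overlapped, with couple 2 the highest and couple 3 the lowest ratio.

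**Figure D2:**
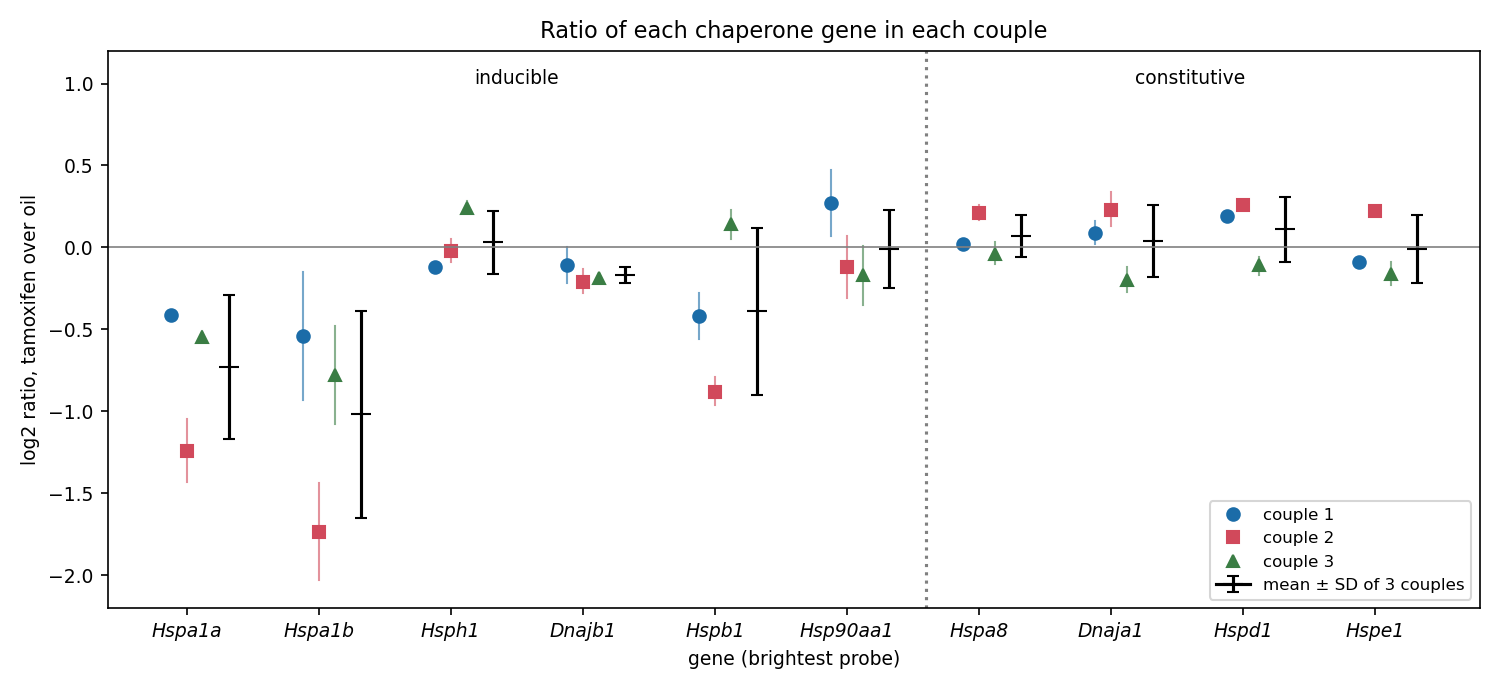
Log2 ratio of tamoxifen over oil (vertical axis) of each gene in couples 1, 2 and 3 (points), with thin lines joining the values of the 2 dye orientations and a black bar for the mean ± SD of 3 couples. Hspa1b and Hspa1a have the lowest means, -1.02 and -0.73, and the brightest probes of all 4 constitutive genes have their highest ratio in couple 2.

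The couples were ordered as follows, with no test of the order. By their brightest probes, all 4 constitutive genes were highest in couple 2 and lowest in couple 3, while 4 of the 6 inducible genes, Hspa1a, Hspa1b, Hspb1 and Dnajb1, were lowest in couple 2. Of the other inducible genes, Hsp90aa1 was lowest in couple 3, and Hsph1 was lowest in couple 1 and highest in couple 3. Every tested probe of Hspd1 and Hspe1 was highest in couple 2 and lowest in couple 3, but the dimmer probes of Hspa8 and Dnaja1 did not. Several other lists had the same couple order as the constitutive genes. In couples 1, 2 and 3, list means were 0.02, 0.23 and -0.11 for ER chaperones and 0.07, 0.1 and 0.06 for the TRiC chaperonin. They were -0.03, -0.02 and -0.12 for other J-domain proteins and -0.09, -0.01 and -0.22 for fibroblast markers. Erythroid markers also had this order, with 4 of 6 listed markers tested and mean log2 ratios of -0.15, 1.01 and -1.57. Their mean normalized log2 signal ran from 9.01 to 10.34 in tamoxifen samples and from 9.16 to 10.80 in oil samples. Alveolar macrophage markers, 10 of 10 tested, were also highest in couple 2, at -1.18, 0.77 and -0.54. Their mean signal was 11.67 to 13.17 in tamoxifen samples and 12.40 to 12.84 in oil samples. Their part in the constitutive genes was not tested.

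Taken as 2 sets, the inducible genes averaged log2 ratios of -0.22, -0.70 and -0.22 in couples 1, 2 and 3, against 0.05, 0.23 and -0.13 for the constitutive genes. The difference, inducible minus constitutive, was -0.27, -0.93 and -0.09, averaging -0.43 ± 0.44 (SD, n = 3 couples). It was below 0 in all 3 couples, but its size rested on couple 2, and both its size and its sign in couple 3 rested on Hspa1a and Hspa1b. Without couple 2 the mean difference was -0.18. Without Hspa1a and Hspa1b the couples were at -0.15, -0.54 and 0.13, averaging -0.18 ± 0.34 (SD, n = 3 couples). With the mitochondrial Hspd1 and Hspe1 left out it was -0.43. No p is given for these sets, since their genes were chosen with results in view.

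The median log2 ratio was -0.28 for the 6 inducible genes and 0.06 for the 4 constitutive ones. Over all 10 genes the median was -0.009, beside a median of -0.004 over all tested genes. Of the 10 genes, 6 had a mean ratio below 0, against 51.2% of all genes. In all 3 couples, 3 of the 10 were lower (Hspa1a, Hspa1b and Dnajb1) and 0 were higher, against 16.4% and 13.8% of all genes. On all 6 arrays 2 of the 10 were lower (Hspa1a and Hspa1b) and 0 were higher, against 7.21% and 6.04% of all genes. Hspa1a and Hspa1b followed each other with r = 0.999, so they are not 2 independent genes in these counts. Tamoxifen samples lay entirely below oil samples for 3 of the 10, against 7.14% of all genes, and entirely above for 0 of the 10, against 5.2%.

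**Figure D3:**
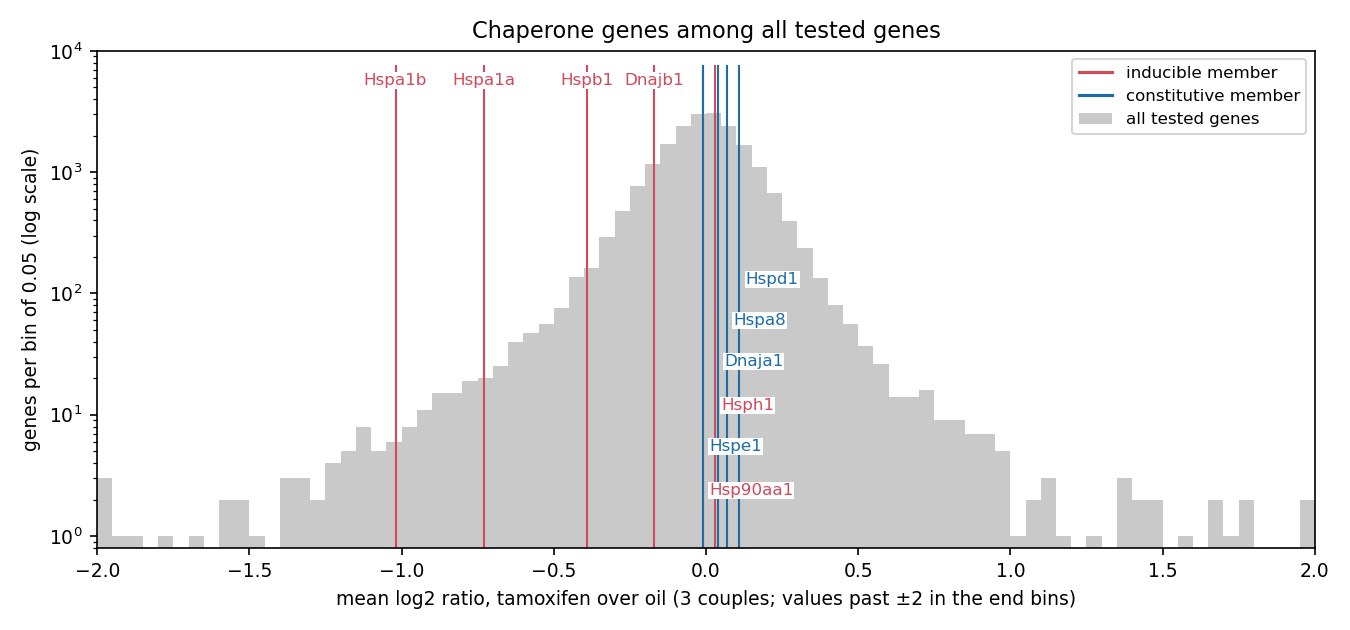
Number of genes per bin of 0.05 (vertical axis, log scale) by mean log2 ratio of tamoxifen over oil (horizontal axis) for the 20474 tested genes, with lines at the 6 inducible genes (red) and the 4 constitutive genes (blue). Hspa1b and Hspa1a stand in the lower tail, and 6 of the 10 genes lie between -0.01 and 0.11.

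Probes placed elsewhere in the same gene gave similar means but not always the same couple order. For the 6 genes with more than 1 tested probe, the means of a gene's probes differed by 0.02 to 0.08 on the log2 ratio scale. The 4 Hspa8 probes began between bases 405 and 1812 of the transcript, as the files give it. Couple 1 was the lowest for the 3 dimmer ones, at -0.11, -0.07 and -0.02, whereas couple 3 was the lowest for the brightest. Both dimmer Dnaja1 probes were highest in couple 1, at 0.14 and 0.20, and gave means of 0.02 and 0.10. Their signals were only 7.11 to 7.44 and 6.73 to 7.07 normalized log2 units, against 13.25 to 13.60 for the brightest probe. The normexp offset draws ratios of such dim probes closer to 0, so they are a weak check. Both Hsp90aa1 probes showed couple 1 above 0 and couples 2 and 3 below it, with means of -0.01 and -0.02. The 2 Hsph1 probes fell on different sides of 0, at 0.03 and -0.05, as did the 3 Hspe1 probes, between -0.02 and 0.06. Hspa1a, Hspa1b, Dnajb1 and Hspb1 each had 1 probe, so their values have no such check.

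**Figure D4:**
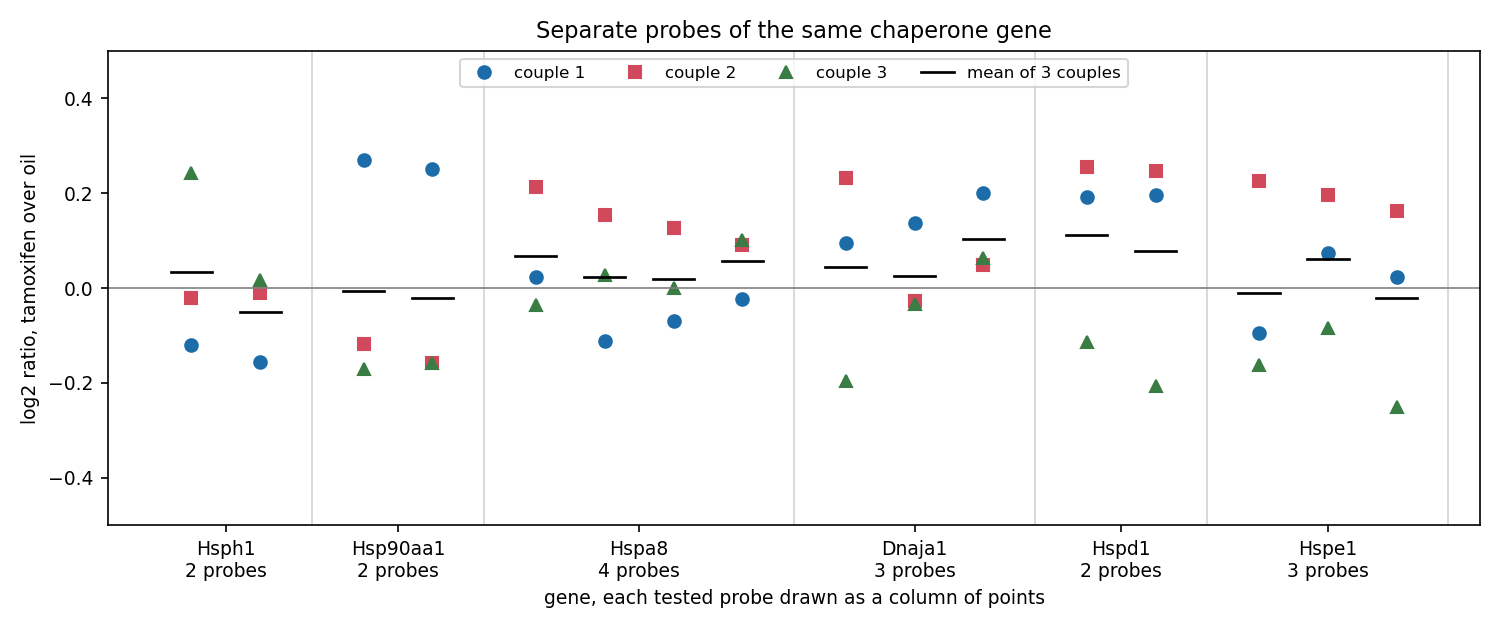
Log2 ratio of tamoxifen over oil (vertical axis) in couples 1, 2 and 3 for each tested probe of the 6 genes that have more than 1, with a black line at the mean of 3 couples. No probe of these genes has a mean beyond -0.05 or 0.11.

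The genes whose signal over the 6 samples was most like that of Hspa1a were Hspa1b (r = 0.999), Fhod1 (0.987), which encodes a formin, Supt20 (0.975), which encodes a subunit of the SAGA complex, and 2 probes named only by an intergenic position (0.993 and 0.980). These are Pearson correlations over 6 samples that share arrays in couples, given as a description. Among all tested genes, 122 (0.596%) had r over 0.9 with Hspa1a. Dnajb1 was the 25th most like gene (r = 0.950), whereas Hspb1 was at 0.624, Hsp90aa1 at 0.272 and Hsph1 at 0.091. The 4 constitutive genes were between -0.550 and -0.335.

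For Hspa8, the most alike genes were 4930573C15Rik (r = 0.995), Rpap2 (0.986), Mrps22 (0.979), Mospd1 (0.978) and BC064078 (0.977), again over 6 samples, and 158 genes (0.772%) had r over 0.9. Hspd1 followed Hspa8 with r = 0.820 and Dnaja1 with r = 0.791, while the inducible Hsp90aa1 and Hsph1 were at 0.485 and 0.361 and the constitutive Hspe1 at 0.351. The other 4 inducible genes were between -0.567 and -0.316.

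Other genes known to be induced by heat shock were split. All 20 on the list were tested, 9 had mean log2 ratios below 0 and 11 above, 0 passed the test, and the median was 0.02. The lowest were Hspa4l, an HSP110 relative, at -0.52 ± 0.04 with couples at -0.48, -0.55 and -0.53, and Dedd2, a nuclear death effector domain protein, at -0.40 ± 0.14 (SD, n = 3 couples; limma adjusted p = 0.67 and 0.69). The highest were the HSP70 to HSP90 adaptor Stip1 at 0.25 ± 0.23 and the cell cycle inhibitor Cdkn1a at 0.49 ± 0.48 (adjusted p = 0.69 each). Bag3, an HSP70 partner in selective autophagy, is named with its values already seen. It was at -0.26 ± 0.04, with couples at -0.22, -0.29 and -0.27 (adjusted p = 0.69). Tamoxifen samples lay entirely below oil samples for 3 of the 20 genes (Hspa4l, Dedd2 and Bag3), against 7.14% of all genes. They lay entirely above for 2 of the 20, against 5.2% of all genes, which were Ahsa2 at 0.21 ± 0.15 and Ier5 at 0.23 ± 0.03, both named with their values already seen.

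Hsf1, the gene of the transcription factor itself, was at -0.00 ± 0.17 on the log2 ratio scale (SD, n = 3 couples), with couples at 0.00, -0.18 and 0.16. Of the 9 genes listed as HSF1 and its regulators, 7 were tested, 4 were below 0 and 3 above, and 0 passed. Hsbp1l1, a relative of the HSF1-binding protein, was lowest at -0.35 ± 0.34, followed by Hsbp1, which binds HSF1 trimers, at -0.13 ± 0.07. The highest were the ATPase Vcp at 0.07 ± 0.05 and the deacetylase Hdac6 at 0.28 ± 0.20 (SD, n = 3 couples; limma adjusted p between 0.69 and 0.85 for these 4 genes).

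Small heat shock proteins other than Hspb1 included members known from muscle, with mixed ratios. Of 7 listed, 5 were tested, 3 were below 0, 2 above, and 0 passed. Hspb7, known from heart muscle, was at -0.46 ± 0.33, with couples at -0.44, -0.80 and -0.14, and Hspb6, known from smooth and heart muscle, was at -0.41 ± 0.12, with couples at -0.28, -0.51 and -0.46 (SD, n = 3 couples; limma adjusted p = 0.69 each). Hspb2 was at 0.03 ± 0.24 and Hspb11, listed here by its symbol alone, at 0.10 ± 0.11. The small heat shock proteins Cryab and Hspb8, also known from muscle, were counted with the heat shock induced genes and are named with their values already seen. Their ratios did not share a sign across couples, with Cryab at -0.23, -0.27 and 0.63 and Hspb8 at -0.28, -0.53 and 0.48. Smooth muscle markers, 6 of 7 tested, had mean log2 ratios of -0.14, -0.14 and 0.03 in couples 1, 2 and 3, and a mean signal of 9.48 to 9.68 in tamoxifen samples and 9.54 to 9.82 in oil samples. The part of muscle cells in these values was not tested.

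Partners of HSP70 and HSP90 went both ways, with list medians of -0.00 and -0.02. Of the 15 other HSP70 and HSP110 proteins and exchange factors, 14 were tested, 7 were below 0 and 7 above, from Hspa13 at -0.14 ± 0.22 and St13 at -0.13 ± 0.08 to Sil1 at 0.18 ± 0.49 and Bag1 at 0.20 ± 0.18. Hspa2, named with its values already seen, had couples at 1.43, -0.30 and -1.03. The HSP90 list held 12 genes, of which 6 were below 0 and 6 above, and included Hsp90ab1, the constitutive cytosolic HSP90 itself, at 0.07 ± 0.13 beside its cochaperones. Unc45a, a myosin chaperone, was at -0.30 ± 0.08, Ppid at -0.22 ± 0.31, Nudc at 0.21 ± 0.09 and Sugt1 at 0.22 ± 0.13. Tamoxifen samples lay entirely below oil samples for 1 of these 12 genes (Unc45a), against 7.14% of all genes. They lay entirely above for 2 (Nudc and Sugt1), against 5.2% of all genes. None passed the test on either list (SD, n = 3 couples; lowest limma adjusted p = 0.71 and 0.69).

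Among 17 other J-domain proteins, 11 were below 0, 6 above, and 0 passed. Dnaja2, a relative of Dnaja1 with the same domain order, was at -0.32 ± 0.04, with couples at -0.28, -0.31 and -0.36, whereas Dnaja1 was at 0.09, 0.23 and -0.20 in the same couples. Dnajb9, an ER member, was at -0.40 ± 0.20, and the list ended with Dnajc3 at 0.08 ± 0.08 and Dnajc13 at 0.09 ± 0.23 (SD, n = 3 couples; lowest limma adjusted p on the list 0.69).

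The other folding machines were also close to 0. The TRiC chaperonin of the cytosol, which folds actin and tubulin, had 2 of 8 subunits below 0 and 6 above, from Cct2 at -0.06 ± 0.16 and Cct5 at -0.00 ± 0.05 to Tcp1 at 0.16 ± 0.11 and Cct7 at 0.16 ± 0.16. Mitochondrial chaperones and proteases, the neighbours of Hspd1 and Hspe1, were split 5 and 5, from Grpel2 at -0.21 ± 0.18 and Trap1 at -0.10 ± 0.17 to Afg3l2 at 0.18 ± 0.24 and Clpp at 0.27 ± 0.25. ER chaperones were below 0 for 2 and above for 8 of 10, from Hsp90b1 at -0.19 ± 0.33 and Creld2 at -0.01 ± 0.24 to Sdf2l1 at 0.11 ± 0.37 and Calr at 0.17 ± 0.17. On these 3 lists 0 genes passed (SD, n = 3 couples; lowest limma adjusted p = 0.72, 0.69 and 0.73). The list mean was lowest in couple 3 for these 3 lists and also for HSF1 and its regulators, the other HSP70 and HSP110 proteins and the other J-domain proteins, 6 of the 10 lists in all.

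Immediate early genes, which are switched on within minutes by growth signals and stress, were mostly below 0. Of 15 tested, 14 had a mean log2 ratio below 0 and 0 passed, with a median of -0.17. Fos, a subunit of AP-1, was at -0.55 ± 0.13 with couples at -0.41, -0.63 and -0.62, and Egr1 was at -0.43 ± 0.51 with couples at -0.99, -0.02 and -0.28 (SD, n = 3 couples; limma adjusted p = 0.68 and 0.70). Nr4a1 at -0.06 ± 0.36 and Btg2 at 0.04 ± 0.17 were the highest. The list mean was farthest from 0 in couple 1, at -0.41, against -0.15 and -0.08 in couples 2 and 3, whereas Hspa1a and Hspa1b were farthest from 0 in couple 2. Ier3, named with its values already seen, was at -1.75, 0.18 and 0.95 and weighed on the list means of couples 1 and 3. Not every gene had the order of the list mean: Egr1 was farthest from 0 in couple 1, but Fos in couple 2.

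**Figure D5:**
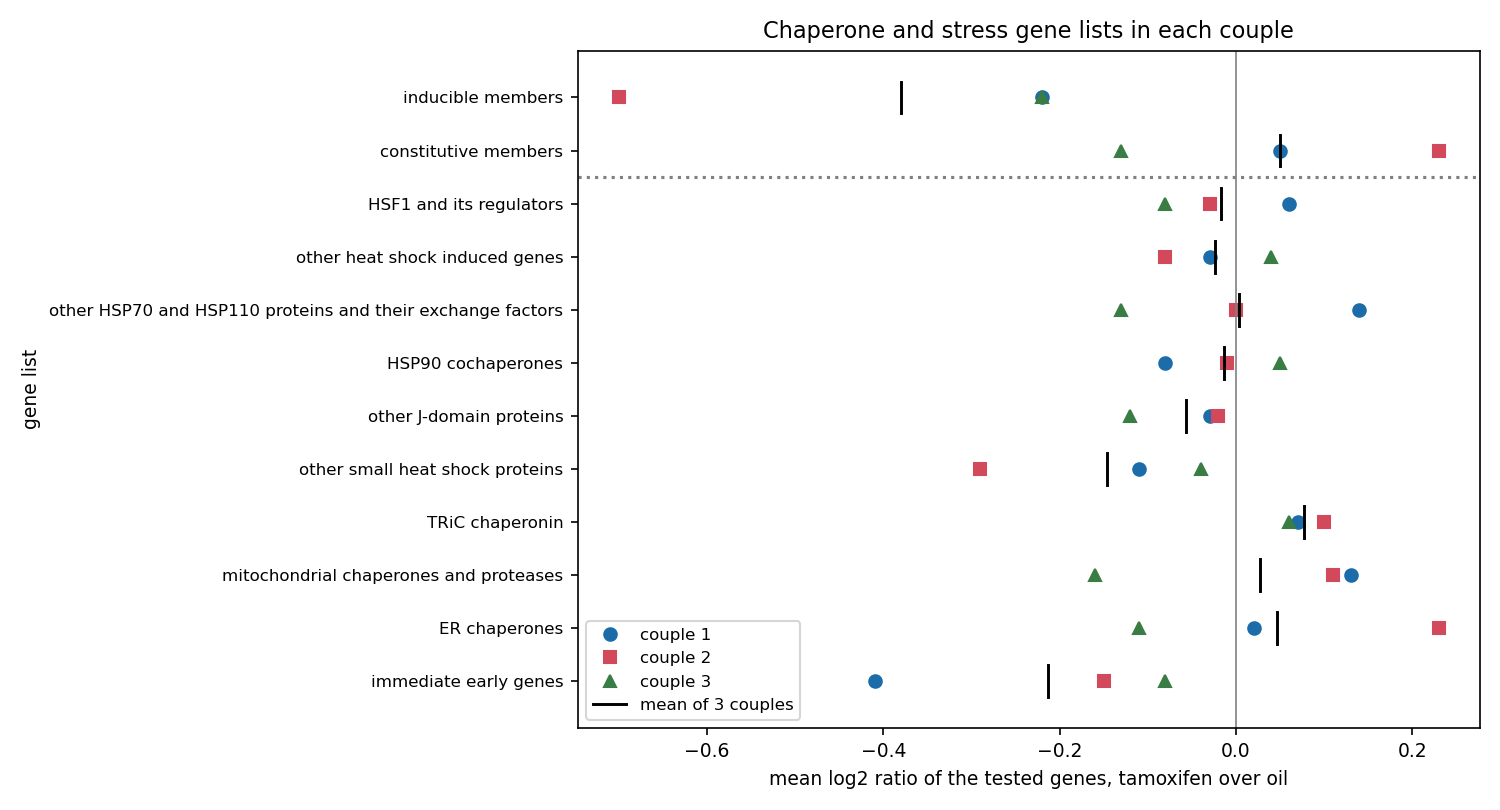
Mean log2 ratio of tamoxifen over oil (horizontal axis) of the tested genes of each list in couples 1, 2 and 3 (points), with a black line at the mean of 3 couples. The inducible genes lie at -0.22, -0.70 and -0.22 and the constitutive genes at 0.05, 0.23 and -0.13, while the other chaperone lists lie within 0.30 of 0 in every couple.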

How the data were processed

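RNA of 3 tamoxifen and 3 oil tumor samples was read on 6 arrays in 2 colours, on 1 slide. The deposited scanner files hold spot intensity (mean foreground and median background, not normalized), a log10 ratio of Cy5 over Cy3 after dye normalization by the scanner software, and flags, per the file headers. The submitters' processing notes name Agilent Feature Extraction 12.0.3.1. A deposited series table holds log2 ratios of Cy5 over Cy3: against the log10 ratios its columns had slopes of 3.32 to 3.33. The medians of its columns in couples 1, 2 and 3 were 0.14, -0.14 and -0.06 where tamoxifen had Cy5, and 0.13, -0.15 and -0.01 where oil had Cy5, so it was not centred on the median.

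Under R 4.3.3, limma 3.58.1 corrected the intensities by normexp (offset 50), which draws the ratios of dim probes closer to 0. Loess within arrays followed, with control spots at weight 0 and outlier spots left out. Each gene name took its brightest probe and was tested where that probe was well above background in 2 or more couples, on both arrays, for tamoxifen or for oil. Of the 36870 gene names 22175 matched RefSeq symbols of GRCm38.p6, and the others kept the files' names. Ratios were turned to tamoxifen over oil, dye swaps were averaged, and the 3 couples were tested against 0, two-sided, with lmFit and eBayes and Benjamini-Hochberg adjustment over 20474 genes. The median SE was 0.098, and the small number of arrays limits the precision. Sample signals are single-channel log2 values after Aquantile normalization, 2 readings averaged. The fit was tested on simulated data. The 10 genes and the lists were chosen with earlier results of these data known. From each list of chaperone or stress genes, those with the 2 lowest and the 2 highest mean ratios are named, and for likeness the 5 with the highest r. Cell type markers are given as list means. Genes are named among them for alveolar type 2 cells, by the same rule, and for heart muscle, with their values already seen. Alternatives covered background, normalization, filter, probe choice, dye, pairing and each couple left out, plus, chosen after seeing the data, couple 1 by its tamoxifen-in-Cy5 array alone and a dye term beside the random block.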

Additional observations from a re-analysis of the deposited data

How the results depend on the processing

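Only 3 couples and, for 4 of the 10 genes, 1 probe lie behind the values, and no gene passed in the reported fit. Treating the couple as a random replicate block over 6 arrays (correlation 0.642) gave 56 genes past the threshold, 19 higher and 37 lower. The same fit with a dye term, added after seeing the data, gave 9, with 3 higher and 6 lower, so the count of 56 depends on leaving out the dye, and taking the channels apart without a replicate block gave 1. None of these calls was among the 10 genes. With the replicate number as a block the channels gave 0. Deviations of same-numbered samples correlated with r of 0.095, 0.158 and 0.161, and each sample correlated best with its own number. Oil sample 1 was nearly as close to tamoxifen sample 2, at 0.088. Same-numbered samples share arrays, so these correlations cannot tell whether the samples themselves were paired. Hspa1a (-0.89 to -0.48), Hspa1b (-1.35 to -0.66), Dnajb1 (-0.24 to -0.10), Hspb1 (-0.65 to -0.14) and Hspd1 (0.04 to 0.22) kept their direction under 18 alternatives each, with adjusted p of 0.15 to 0.96 for Hspa1a and 0.19 to 0.96 for Hspa1b. Several of these alternatives could not change the direction. The filter settings, the random block fits and the channel fits left these means as they were, as did averaging over probes for genes with 1 probe. Inducible minus constitutive was at -0.60 to -0.18 under 21 alternatives, of which 6 leave the mean of these bright genes as it was and the others gave 14 different values. It was -0.51, -0.18 and -0.60 without couples 1, 2 and 3. Means near 0 turned sign. Hsp90aa1 was at 0.064 with median centring, 0.011 with the scanner's log ratio and with the series table, and 0.18 with tamoxifen in Cy3 alone. Hspe1 was at 0.0495 with median centring, 0.016 with the scanner's log ratio and with the series table, 0.0096 over all probes and 0.0086 with tamoxifen in Cy3 alone. Dnaja1 was at -0.038 with tamoxifen in Cy3 alone and Hsph1 at -0.013 over all probes. Leaving out 1 couple at a time gave -0.051 to 0.16 for Dnaja1, -0.14 to 0.076 for Hsp90aa1, -0.0062 to 0.12 for Hspa8, -0.13 to 0.065 for Hspe1 and -0.070 to 0.11 for Hsph1. The cause of these turns was not tested.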
